A study of Mus musculus with 2 samples.

Results

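The genes examined were 9 that write, copy, remove or bear on DNA methylation, taken as a fixed list from 43346 gene identifiers in each library. They were Dnmt1, Dnmt3a, Dnmt3b, Uhrf1, Tet1, Tet2, Tet3, Idh1 and Idh2, each found by its Ensembl identifier without the version number. Poly(A)-selected RNA came from primary megakaryocyte-erythroid progenitors (MEP), bone marrow cells that form red cells and megakaryocytes, of adult female C57BL/6J mice aged 5 weeks. One label gives the cells as CD34- and also names lineage markers and CD16/32. There was 1 group with 2 biological replicates and no other genotype, treatment or time, so no conditions were compared. The replicates are separate biosamples under the same donor identifier, and whether each was pooled from several animals is not given. Expected counts summed to 79539457 in replicate 1 and 65305321 in replicate 2.

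DNA methylation in mammals sits mostly on cytosines followed by guanine (CG). Dnmt1 copies it onto the new strand after replication, guided by Uhrf1, while Dnmt3a and Dnmt3b add it to unmethylated sites. The Tet enzymes oxidise methylcytosine and need 2-oxoglutarate, which Idh1 makes in the cytosol and Idh2 in mitochondria. In human blood, mutations of DNMT3A, TET2, IDH1 and IDH2 recur in clonal haematopoiesis and myeloid leukaemia.

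The erythroid markers Klf1 (123.22 and 123.77 TPM in replicates 1 and 2), Gata1 (28.47 and 45.78) and Epor (41.54 and 52.21) were present. TPM is a level corrected for transcript length and scaled to a sum of 1000000 per library. Hba-a1, an alpha globin gene, was at 497.79 and 878.42 TPM, and the carbonic anhydrase genes Car1 (86.38 and 107.86 TPM) and Car2 (156.51 and 195.12 TPM) were also present. Alas2, the erythroid gene of the first step of heme synthesis, was low at 0.35 and 0.42 TPM. All 8 erythroid markers were higher in replicate 2. All 8 granulocyte and monocyte markers were also found, with summed levels of 31212 and 17140 TPM, and all 8 were higher in replicate 1. All 5 B-cell markers were higher in replicate 1, with sums of 73.57 and 26.95 TPM. All 7 megakaryocytic and all 6 stem and multipotent progenitor markers were higher in replicate 2. Of protein-coding genes at 1 TPM or more in both libraries, 59.8% were higher in replicate 2, while the marker lists hold some genes under that level. Sums of the megakaryocytic list were 215.74 and 352.2 TPM, and those of the stem list 202.6 and 315.77 TPM. Cd34 itself was at 69.14 and 91.88 TPM. The part of these other cells in the levels below was not tested, and fewer cells of a type cannot be told apart from less RNA per cell in bulk RNA.

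Several results turn on short stretches of sequence, shown here 5′ to 3′ in the sense of the gene. Coordinates are GRCm38, and exon sequences are from GENCODE M21 transcripts. The first is an exon of Idh2 (chr7:80098136-80098381, minus strand), in which capitals mark 109 bases that the transcript Idh2-204 has and the protein-coding Idh2-201 lacks.
Idh2-204 exon: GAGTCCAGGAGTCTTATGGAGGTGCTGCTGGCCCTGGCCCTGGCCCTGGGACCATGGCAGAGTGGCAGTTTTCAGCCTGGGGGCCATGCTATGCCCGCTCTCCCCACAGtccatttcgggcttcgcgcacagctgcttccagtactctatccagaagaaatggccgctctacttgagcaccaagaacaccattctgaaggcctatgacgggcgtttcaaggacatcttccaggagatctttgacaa
The second runs over a pair of neighbouring exons of Dnmt3b, with 20 bases of each flanking exon in lower case (chr2:153678537-153686277 from the first to the last base, plus strand). Capitals mark the 189 exon bases, or 63 codons, that Dnmt3b-201 has and that Dnmt3b-205 and Dnmt3b-206 skip.
Dnmt3b-201 exons: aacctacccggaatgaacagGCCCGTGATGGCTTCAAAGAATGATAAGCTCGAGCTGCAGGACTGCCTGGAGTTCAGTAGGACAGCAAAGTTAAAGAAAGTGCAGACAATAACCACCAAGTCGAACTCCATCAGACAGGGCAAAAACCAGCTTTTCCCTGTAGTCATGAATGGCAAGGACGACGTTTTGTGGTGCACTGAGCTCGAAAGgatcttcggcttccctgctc
The third is a stretch of Uhrf1-206 (chr17:56318131-56318266, plus strand), where capitals mark 96 bases that are intron in the protein-coding Uhrf1-201.
Uhrf1-206 stretch: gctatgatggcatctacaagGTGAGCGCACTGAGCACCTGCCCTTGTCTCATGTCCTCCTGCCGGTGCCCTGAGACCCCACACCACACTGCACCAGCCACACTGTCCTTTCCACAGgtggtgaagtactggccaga
The Idh2 extension ends in the bases of a splice acceptor, CAG, directly before the start of the shorter exon. Its 109 bases are not a multiple of 3, and in Idh2-204 the annotated reading frame stops at a TGA that ends 98 bases past the extension. That stop lies 495 bases before the last exon junction, and the coding sequence has 294 codons, against 452 in Idh2-201. The pair of Dnmt3b exons, with its 189 bases, keeps the reading frame.

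Of the 9 genes, 8 reached a TPM of 1 or more in both libraries, against 46.9% of 21474 protein-coding genes. The exception was Tet1. The median level over the 9 genes was 28.09 TPM in replicate 1 and 45.57 TPM in replicate 2. Protein-coding genes at 1 TPM or more in both libraries had medians of 15.88 and 16.9 TPM.

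**Figure D1:**
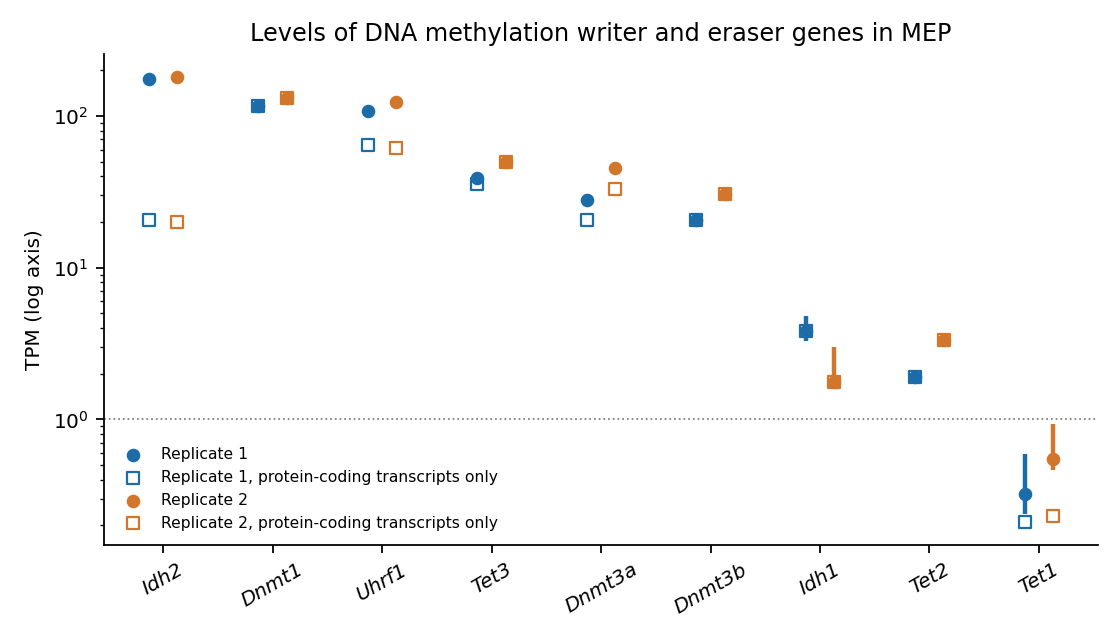
TPM (log axis) of the 9 genes in each library, ordered by mean. Filled circles are gene TPM with the deposited interval as a vertical line, open squares count protein-coding transcripts only, and the dotted line is 1 TPM. Squares fall far below circles for Idh2 (20.45 against 173.68 TPM in replicate 1), less so for Uhrf1 (64.0 against 107.01 TPM), and coincide for Dnmt1.

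The maintenance genes were among the highest. Dnmt1 (ENSMUSG00000004099, chr9:20907209-20959888, minus strand) had 116.43 TPM in replicate 1 and 130.53 TPM in replicate 2, from 40182 and 35870 expected counts. The mean was 123 ± 9.97 TPM (SD, n = 2), which put the gene above 94.1% and 94.6% of protein-coding genes. Uhrf1 (ENSMUSG00000001228, chr17:56303321-56323486, plus strand), which binds hemimethylated CG sites and brings Dnmt1 to them, had 107.01 and 123.84 TPM, a mean of 115 ± 11.9 TPM (SD, n = 2). Dnmt1 exceeded Uhrf1 in each library, but only by 1.07-fold on average, and the values of the libraries overlapped between the genes. The log2 ratio of Uhrf1 over Dnmt1 was -0.12 in replicate 1 and -0.08 in replicate 2. On protein-coding transcripts alone the ratio was -0.86 and -1.08, since only 59.8% and 49.8% of Uhrf1 TPM lay in such transcripts.

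The de novo genes were lower. Dnmt3a (ENSMUSG00000020661, chr12:3806007-3914443, plus strand) had 28.09 TPM in replicate 1 and 45.57 TPM in replicate 2, from 7049 and 7662 counts. Dnmt3b (ENSMUSG00000027478, chr2:153649450-153687730, plus strand) had 20.61 and 30.62 TPM. Means were 36.8 ± 12.4 TPM for Dnmt3a and 25.6 ± 7.08 TPM for Dnmt3b (SD, n = 2 each). Dnmt3a stood 3.44-fold below Dnmt1 and Dnmt3b 4.91-fold below it, in TPM and in both libraries. Dnmt3b was 1.42-fold below Dnmt3a, a difference under 2-fold, and the libraries overlapped between the genes. Counting protein-coding transcripts only, the difference between Dnmt3b and Dnmt3a shrank to 1.04-fold, with log2 ratios of 0.00 and -0.11. That Dnmt3a level includes the short Dnmt3a-206, of 827 bases, at 1.64 TPM in replicate 1 and 14.67 TPM in replicate 2. Dnmt3a transcripts with the full 908 codons had 8.34 and 10.63 TPM, and those with the full 689 codons 10.42 and 6.42 TPM. Protein-coding Dnmt3b transcripts had 20.6 and 30.4 TPM.

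The Tet genes spread over a wide range, in the order Tet3, Tet2, Tet1. Tet3 (ENSMUSG00000034832, chr6:83362373-83459084, minus strand) had 38.72 TPM in replicate 1 and 49.38 TPM in replicate 2, a mean of 44.0 ± 7.54 TPM (SD, n = 2). Tet2 (ENSMUSG00000040943, chr3:133463679-133545139, minus strand), the Tet gene most often mutated in human blood disease, had 1.89 and 3.35 TPM from 1133 and 1599 counts. Tet1 (ENSMUSG00000047146, chr10:62804570-62908996, minus strand) had 0.32 and 0.55 TPM from 110 and 176 counts. The libraries did not overlap between any of the 3 genes. Tet2 was 17.3-fold below Tet3, with log2 ratios of -4.35 and -3.88. Tet1 was 5.88-fold below Tet2, with log2 ratios of -2.53 and -2.58. In expected counts the Tet2 transcript, with 9179 bases, was read at 14.2 and 24.5 CPM (counts scaled to 1000000 per library), against 264 and 345 CPM for Tet3.

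Between the isocitrate dehydrogenases, the mitochondrial form dominated at the level of the gene. Idh2 (ENSMUSG00000030541, chr7:80094846-80115392, minus strand) had 173.68 and 180.39 TPM, the highest level of the 9 genes, with a mean of 177 ± 4.74 TPM (SD, n = 2). Idh1 (ENSMUSG00000025950, chr1:65158616-65186500, minus strand) had 3.85 TPM in replicate 1 and 1.76 TPM in replicate 2, from 471 and 169 counts. Idh2 exceeded Idh1 by 67.7-fold, with log2 ratios of 5.49 and 6.67. On protein-coding transcripts alone Idh2 had 20.45 and 19.97 TPM and exceeded Idh1 by 7.74-fold. The direction was the same both ways.

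Ranked by mean TPM the genes ran Idh2, Dnmt1, Uhrf1, Tet3, Dnmt3a, Dnmt3b, Idh1, Tet2 and Tet1. Libraries overlapped between Dnmt1 and Uhrf1, between Tet3 and Dnmt3a, between Dnmt3a and Dnmt3b, and between Idh1 and Tet2. For Idh1 and Tet2 the order differed between libraries, Idh1 being higher in replicate 1 and Tet2 in replicate 2. The other 4 neighbouring steps, Idh2 to Dnmt1, Uhrf1 to Tet3, Dnmt3b to Idh1 and Tet2 to Tet1, showed no overlap of libraries.

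Of 11 pairs compared, 8 had the same sign in both libraries, a mean log2 ratio over 1 in size and separate deposited TPM intervals in each library. Besides the pairs above, Dnmt3a exceeded Tet2 by 14.2-fold and Dnmt1 exceeded Tet3 by 2.82-fold. Dnmt3a over Tet3 gave -0.46 and -0.12 on the log2 scale, under the threshold. Uhrf1 over Dnmt1 and Dnmt3b over Dnmt3a were the other pairs under it. When expected counts replaced TPM, with no correction for length, Dnmt1 over Tet3 averaged 0.81 on the log2 scale, Dnmt3a over Tet3 averaged -1.56 and Uhrf1 over Dnmt1 averaged -1.32, and 9 pairs passed in sign and size.

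The annotated type of the transcripts divided the genes. All Dnmt1, Idh1 and Tet2 transcripts in the tables are protein-coding in GENCODE M21, and for Dnmt3b and Tet3 at least 92.5% of TPM was so in each library. The share was 73.3% and 71.8% for Dnmt3a, 65.6% and 41.8% for Tet1, and 59.8% and 49.8% for Uhrf1. Idh2 was lowest, with 11.8% of TPM in protein-coding transcripts in replicate 1 and 11.1% in replicate 2. Across 10061 protein-coding genes at 1 TPM or more in both libraries the median of this share was 99.1%, the lower quartile 65.4%, and 909 genes lay under 20%. Idh2 was the 1 of 8 genes whose most abundant transcript was not protein-coding in both libraries, against 16.9% of 9955 genes.

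**Figure D2:**
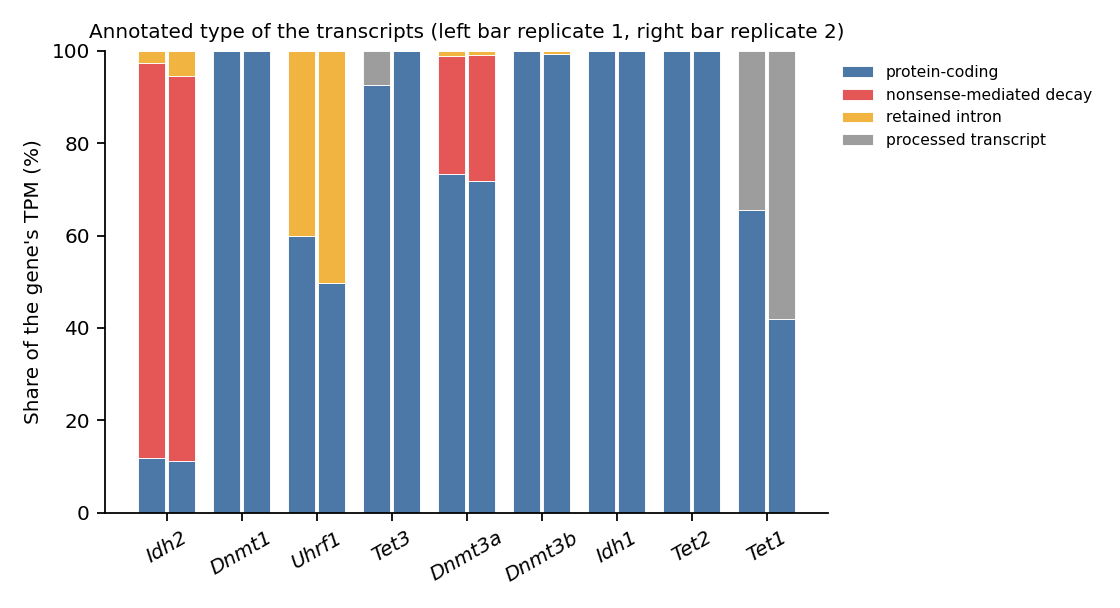
Share of each gene's TPM (%) by annotated transcript type, stacked to 100%, with replicate 1 as the left bar and replicate 2 as the right bar of each pair. Transcripts of the nonsense-mediated decay type hold 85.7% and 83.5% of Idh2, and retained-intron transcripts 40.2% and 50.2% of Uhrf1.

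Within Idh2, the transcript Idh2-204 held 148.78 TPM in replicate 1 and 150.58 TPM in replicate 2, against 20.45 and 19.97 TPM for Idh2-201. GENCODE M21 types Idh2-204 as a target of nonsense-mediated decay, a route that destroys messages with an early stop. The deposited intervals of Idh2-204 began at 144.3 and 144.7 TPM. Those of Idh2-201 ended at 22.1 and 22.3 TPM, so the intervals lay apart in both libraries. Besides the 109-base extension (chr7:80098273-80098381), the transcripts differ by 60 bases at the 5′ start and 4 bases at the 3′ end, both present in Idh2-201 only. Which of these stretches the reads covered was not tested, as the tables hold no counts by exon or junction.

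In Uhrf1 the full-length protein-coding Uhrf1-201, with 782 codons, had 62.09 and 59.41 TPM. The retained-intron transcript Uhrf1-206, with 949 bases, had 42.02 TPM in replicate 1 and 59.8 TPM in replicate 2. By expected counts, which are not divided by length, retained-intron transcripts held only 13.5% and 18.7% of Uhrf1. Protein-coding Uhrf1 transcripts summed to 64.0 and 61.67 TPM, so the gene's higher TPM in replicate 2 lay in its retained-intron transcripts. Uhrf1-206 is short beside Uhrf1-201, which has 3586 bases, and lacks most of it. The bases it has and Uhrf1-201 lacks are the 96 shown above and stretches of 4 and 214.

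Dnmt1 was divided between alternative first exons. Dnmt1-201, with 1620 codons, held 69.1% of Dnmt1 TPM in replicate 1 and 64.1% in replicate 2. Dnmt1-202, with 1501 codons and an upstream first exon of 156 bases (chr9:20959733-20959888), held 27.5% and 33.7%. A form that starts from an upstream first exon and lacks the amino end is known from mouse oocytes. Dnmt1-203, with the same 1501 codons and a first exon downstream of that of Dnmt1-201, held 3.33% and 2.18%. The 3 transcripts share all but their first exons and a few bases. The deposited lengths were 3 to 6 bases above those of GENCODE M21 for all 3 of them, so the models used upstream were not identical to it. Reads of the first exons alone were not tested.

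Dnmt3b transcripts mostly skipped the pair of exons shown above. Transcripts that span and lack both held 86.7% of Dnmt3b TPM in replicate 1 and 84.4% in replicate 2, and transcripts that hold both had 13.3% and 14.9%. The skipping transcripts were Dnmt3b-206 (66.1% and 78.1%) and Dnmt3b-205 (20.6% and 6.34%), each with 776 codons, whose own shares differed between libraries while their sum moved little. Dnmt3b-201, with 860 codons, held 10.1% and 14.6%. Both skipping transcripts also lack a 60-base exon (chr2:153670849-153670908), which was absent from transcripts with 89.9% and 84.7% of TPM. In mouse, the form without these exons lacks part of the catalytic domain and is known from somatic tissues.

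**Figure D3:**
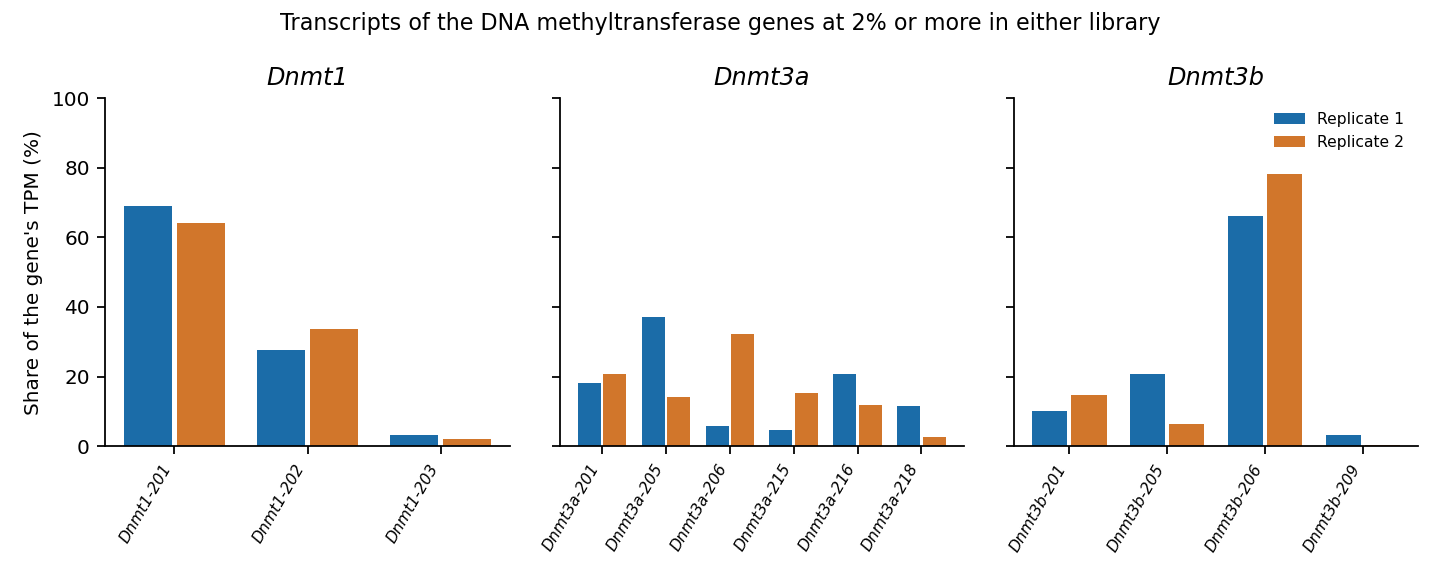
Share of gene TPM (%) of each transcript at 2% or more in either library, for Dnmt1, Dnmt3a and Dnmt3b, with replicate 1 as the left bar and replicate 2 as the right bar. Dnmt1-201 and Dnmt3b-206 lead in both libraries, while the leading transcript of Dnmt3a is Dnmt3a-205 in replicate 1 (37.1%) and Dnmt3a-206 in replicate 2 (32.2%).

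By share of TPM, the leading transcript of Dnmt3a differed between the libraries. The internal-start transcript Dnmt3a-205, with 689 codons, held 37.1% of Dnmt3a TPM in replicate 1 and 14.1% in replicate 2. The short 5′ transcript Dnmt3a-206, with 827 bases, held 5.84% and 32.2%. Dnmt3a-201, with 908 codons, held 18.2% and 20.8%. Transcripts of the nonsense-mediated decay type held 25.6% and 27.2%, namely Dnmt3a-216 (20.9% and 11.9%) and Dnmt3a-215 (4.77% and 15.3%). By expected counts, the transcripts with the full 908 codons, Dnmt3a-201 and Dnmt3a-218, took 71.9% and 69.2% of the gene (Dnmt3a-201 alone 45.8% and 62.4%, the most of any transcript in both libraries), and the full 689-codon form 21.4% and 9.68%. An internally started form without the amino end is known from mouse embryonic stem and germ cells. With these shifts, the effective length of Dnmt3a (the length over which reads could start, averaged over its transcripts) was 3791 bases in replicate 1 and 3179 bases in replicate 2. TPM is a count divided by this length.

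Tet3 was divided between a pair of coding forms. Tet3-202, with 1668 codons, had 53.1% of Tet3 TPM in replicate 1 and 56.8% in replicate 2. Tet3-203, with 1803 codons, had 39.4% and 43.2%. Tet3-203 alone has an upstream exon of 731 bases (chr6:83454750-83455480), and Tet3-202 alone a 3′ stretch of 5669 bases. Upstream coding exons of Tet3 are known to encode its CXXC domain, which binds CG-rich DNA. Tet2, whose single deposited transcript Tet2-201 has 1912 codons, lacks such a domain. Of its known CXXC-domain partners, Cxxc4 had 0.04 and 0.23 TPM and Cxxc5 had 43.27 and 49.9 TPM. For Tet1, the processed transcript Tet1-202 held 34.4% and 58.2% of a gene level under 1 TPM, from 9.98 and 23.03 counts. In Idh1, Idh1-201 held 82.6% and 56.8%, and Idh1-203, with an upstream first exon, was listed at 0 in replicate 1 and held 24.4% in replicate 2.

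Promoter windows, from 250 bases before to 50 bases after each RefSeq start, matched all 9 genes with 15 windows. The start of the Tet1 window lies 7310 bases from that of Tet1-201, the nearest deposited Tet1 transcript, so the window covers no deposited Tet1 start. The windows had a median of 23 CG dinucleotides, against 7 over all 32851 windows. Those 32851 windows belong to 27025 genes, expressed here or not, and windows of expressed protein-coding genes alone were not compared. The windows at the starts of the alternative Dnmt1 and Dnmt3a transcripts are shown, 5′ to 3′ in the sense of the gene, with CG in capitals, because these transcripts start at separate places in 1 gene. They are RefSeq windows on GRCm38.p6.
Dnmt1-202, chr9:20959839-20960138, minus strand: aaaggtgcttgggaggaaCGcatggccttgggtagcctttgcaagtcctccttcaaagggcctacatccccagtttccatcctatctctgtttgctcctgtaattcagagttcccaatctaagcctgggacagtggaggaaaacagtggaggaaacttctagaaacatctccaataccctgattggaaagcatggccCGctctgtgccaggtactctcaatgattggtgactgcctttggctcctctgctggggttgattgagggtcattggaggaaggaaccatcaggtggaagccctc
Dnmt1-201, chr9:20952930-20953229, minus strand: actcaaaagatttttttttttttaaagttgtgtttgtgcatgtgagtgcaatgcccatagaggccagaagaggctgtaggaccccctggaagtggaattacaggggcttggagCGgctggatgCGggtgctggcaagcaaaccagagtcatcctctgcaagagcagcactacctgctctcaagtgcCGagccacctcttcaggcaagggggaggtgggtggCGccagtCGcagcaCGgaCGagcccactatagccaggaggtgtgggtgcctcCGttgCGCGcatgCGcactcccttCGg
Dnmt3a-205, chr12:3891494-3891793, plus strand: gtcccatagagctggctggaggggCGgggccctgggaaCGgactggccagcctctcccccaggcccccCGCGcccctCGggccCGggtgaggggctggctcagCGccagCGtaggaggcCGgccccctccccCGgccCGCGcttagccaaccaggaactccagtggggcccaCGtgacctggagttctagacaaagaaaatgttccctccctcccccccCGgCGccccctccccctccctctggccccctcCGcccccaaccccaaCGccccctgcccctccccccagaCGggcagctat
Dnmt3a-201, chr12:3806730-3807029, plus strand: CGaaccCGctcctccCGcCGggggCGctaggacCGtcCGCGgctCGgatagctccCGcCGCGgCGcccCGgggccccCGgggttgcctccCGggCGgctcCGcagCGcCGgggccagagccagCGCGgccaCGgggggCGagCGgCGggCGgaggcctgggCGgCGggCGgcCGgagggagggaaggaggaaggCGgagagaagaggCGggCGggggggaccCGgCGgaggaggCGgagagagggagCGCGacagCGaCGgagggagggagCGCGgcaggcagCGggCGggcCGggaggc
The upstream Dnmt1-202 window held 2 CG and the Dnmt1-201 window 12, and a further Dnmt1 window at the start of Dnmt1-203 held 33. The internal Dnmt3a window held 18 CG, against 46 in the window whose start lies 50 bases before that of Dnmt3a-201. The internal window is set on the start of Dnmt3a-203 (base 3891744), a transcript listed at 0 TPM, while Dnmt3a-205 starts at base 3891728, inside the same window. The Tet2 window held 57, a number reached by 0.152% of all windows, and the Dnmt1-202 number was reached by 85.9%. The E2F motif TTTCCCGC, searched on both strands, was in 0 of the 15 windows and in 1.07% of all windows. Its variant TTTGGCGC was in 1 of the 15, the Dnmt1-203 window, and in 0.514% of all windows. The GATA motif AGATAA was in 0 of the 15 and in 11.2% of all windows.

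**Figure D4:**
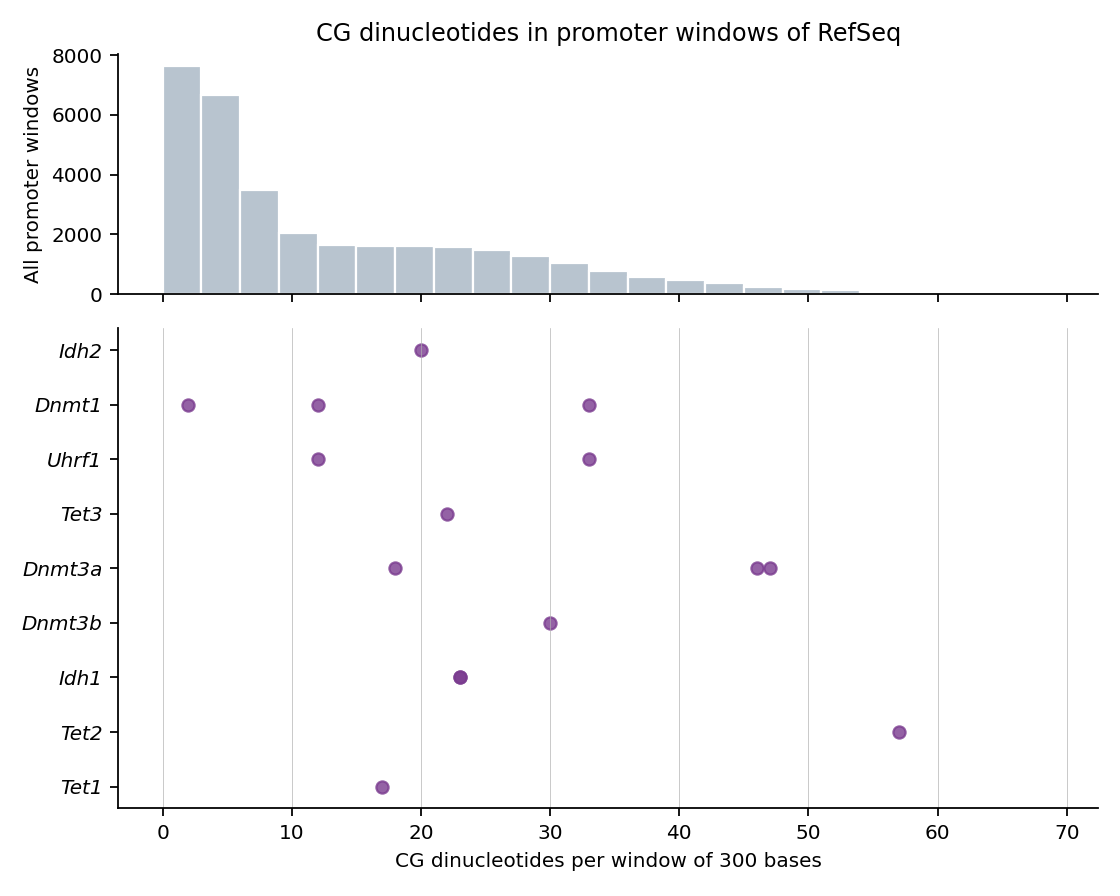
CG dinucleotides per promoter window of 300 bases. The upper panel is the histogram of all 32851 windows, and the lower panel has 1 point per window of each gene. Dnmt1 windows run from 2 to 33 CG and Dnmt3a windows from 18 to 47, while the Tet2 window has 57.

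The libraries differed little for the maintenance genes and Idh2, and more for the other members. On TMM-scaled CPM, which scale counts to the library but not to length, the log2 ratio of replicate 1 over replicate 2 was -0.06 for Dnmt1, 0.06 for Uhrf1 and 0.08 for Idh2. It was -0.33 for Tet3, -0.35 for Dnmt3a, -0.46 for Dnmt3b, -0.72 for Tet2 and -0.89 for Tet1. Only Idh1 was more than 2-fold apart, higher in replicate 1 with a log2 ratio of 1.24, and this was 1 of 9 genes against 6.4% of 13546 genes that passed the count filter. On log2(TPM + 1), Idh1 was 0.81 apart and no member passed 2-fold. With 1 library on each side no test exists. edgeR's common coefficient of variation between the libraries was 21.8%. Its trended value, fitted over all genes by abundance, ran from 15.1% at the level of Uhrf1 to 30.4% at that of Tet1. edgeR also gives a value for each member, drawn toward that trend, so it is not the member's own spread alone. These values ran from 14.1% for Uhrf1 to 32.4% for Tet1, with Idh1 at 32.0%.

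In TPM, 8 of the 9 genes were higher in replicate 2, against 59.8% of protein-coding genes at 1 TPM or more in both libraries. The 8 include Tet1, which lay under 1 TPM and so outside the set behind that share. The signs of Uhrf1 and Idh2 depended on the unit, at 0.06 and 0.08 in CPM and at -0.21 and -0.05 in TPM. For Dnmt3a the difference was -0.35 in CPM and -0.70 in TPM, beside the effective lengths given above. Granulocyte, monocyte and B-cell markers were higher in replicate 1 and stem, megakaryocytic and erythroid markers in replicate 2, and their part in these differences was not tested.

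**Figure D5:**
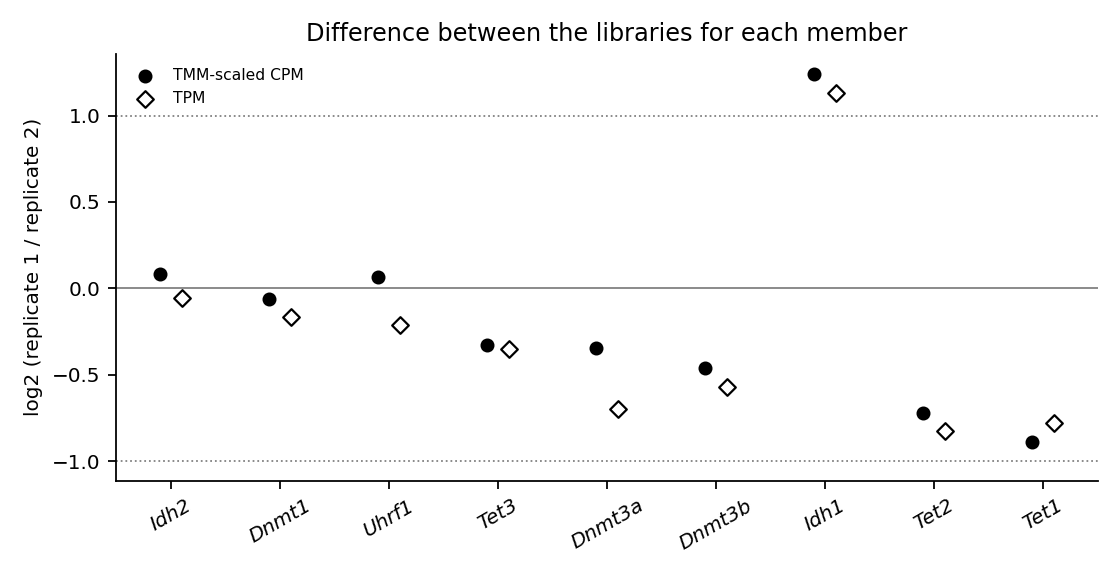
Log2 ratio of replicate 1 over replicate 2 for each gene. Filled circles are TMM-scaled CPM, open diamonds are TPM, and dotted lines mark 2-fold. Idh1 alone lies above the upper line (1.24 and 1.13), and circles and diamonds fall on opposite sides of 0 for Idh2 and Uhrf1.

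Genes that work with the writers were led by Trim28, a corepressor that brings silencing to repeats, at 386.73 and 427.88 TPM in replicates 1 and 2. Of 12 writer partners 8 reached 1 TPM in both libraries, against 46.9% of all protein-coding genes, with medians of 13.2 and 16.1 TPM. Cdca7, which works with the remodeler Hells, was next at 62.03 and 68.18 TPM. Usp7, a deubiquitinase that binds Dnmt1 and Uhrf1, differed most among those at a mean of 5 TPM or more, at 22.41 and 29.5 TPM. Dnmt3l, the cofactor of Dnmt3a in germ cells, had 0.52 and 0.25 TPM. Dppa3, which keeps Uhrf1 out of the oocyte nucleus, had 0 counts, which allowed at most 0.0377 and 0.0459 CPM, for counting error only. Of 10 genes of the methyl-CG reader families, 9 reached 1 TPM in both libraries, against the same 46.9%. They were led by Mbd6 (436.98 and 496.37 TPM) and Mbd3 (239.04 and 277.69 TPM), while Mbd4 (1.69 and 1.42) and Mbd5 (1.72 and 0.96) were lowest. Mammalian Mbd3 and Mbd6 carry the family's domain but are known to bind methylated DNA weakly or not at all. Mbd1 had 23.64 and 28.54 TPM.

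Of 16 eraser partners and base excision repair genes 13 reached 1 TPM in both libraries, against 46.9% of all protein-coding genes, with medians of 36.2 and 36.8 TPM. The stress gene Gadd45a had 175.99 and 215.59 TPM and the abasic-site nuclease Apex1 179.58 and 203.34 TPM. Parp1, which binds DNA breaks, had 134.11 and 180.1 TPM. The glycosylases Neil2 (0.03 and 0.12 TPM) and Smug1 (0.62 and 0.92 TPM) were under 1 TPM. Of 5 cytidine deaminases 1 reached 1 TPM, Apobec3 at 15.56 and 12.03 TPM. Apobec1 had 1.2 and 0.6 TPM and Apobec4 0 and 0.03 TPM.

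Of 18 genes that supply or remove 2-oxoglutarate 17 reached 1 TPM in both libraries, against 46.9% of all protein-coding genes. Their medians were 45.5 and 47.3 TPM. Dlst, a subunit of the dehydrogenase that consumes it, had 124.9 and 133.21 TPM, and the succinate dehydrogenase subunit Sdhb 121.56 and 134.61 TPM. Adhfe1 was lowest of the list at 0.24 and 0.09 TPM. Dld had 5.83 and 7.04 TPM. Of 11 methyl donor genes 8 reached 1 TPM in both libraries, against the same 46.9%, with medians of 7.02 and 7.01 TPM. Mat2b, which regulates the enzyme that makes S-adenosylmethionine, had 89.94 and 71.83 TPM, and Ahcy, which clears its product, 53.03 and 59.68 TPM. Ahcyl2 had 7.02 and 10.37 TPM. The liver genes Mat1a and Bhmt had 0 counts in both libraries.

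Among the 72 genes of these 6 lists, those nearest to Dnmt1 over the 2 libraries in log2(TPM + 1) were Xrcc1 (111.25 and 131.93 TPM, distance 0.0669) and Sdhb (distance 0.0758). Nearest to Tet2 was Ogt (2.53 and 3.32 TPM, distance 0.289). Nearest to Idh2 were Apex1 (distance 0.178) and Gadd45a (distance 0.257). These distances rest on 2 libraries and describe levels only.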

How the data were processed

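Poly(A) RNA-seq of 2 MEP libraries was deposited as gene and transcript tables. The labels name mm10 and a deposited text file names GENCODE M4. Neither an aligner, a quantification program nor the strand handling is given in the sources used here. The expected counts were deposited by the authors for each gene and transcript, per the file headers. The deposited TPM divides these by effective length, and the deposited FPKM is scaled by length and by total fragments. The deposited percent columns give transcript shares. The deposited bounds of the TPM interval were handled as a signal; they belong to the posterior mean, cover quantification error within 1 library, and for Dnmt1 excluded its own TPM in both libraries. Their level is not stated.

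Of 43346 identifiers 42462 matched GENCODE M21 without version, which gave symbols, types and coordinates. All 64 deposited member transcripts matched, while GENCODE M21 lists 83 for the members. Rows of 97 spike-ins and of numeric identifiers, with at most 1 count, stayed out of totals. Expected counts were rounded for edgeR 4.0.16 (R 4.3.3; TMM factors 0.98 and 1.02, filterByExpr, intercept-only design, prior count 2), checked on simulated data. Size factors and dispersions of DESeq2 1.42.0 served as alternatives. Pair ratios used a pseudocount of 0.01 TPM. Python 3.11.15, numpy 2.4.6, pandas 2.3.3 and matplotlib 3.10.9 were used. A count of 0 was read as at most 3 counts. The libraries were not the same library deposited again: chi-square per degree of freedom was 149 over 19021 degrees of freedom.

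The members and lists were chosen with earlier results of these data known. The text names all 9 members and, of each list, the 2 highest and 2 lowest genes by mean TPM (ties at 0 included), the 1 whose libraries differed most among genes averaging 5 TPM or more, the nearest genes and marker genes. Values of some genes under this rule are not reported here. Smug1, genes named beside a transcript or domain result, and the exons and transcripts shown, were chosen after values were seen. Marker lists of mast cells and basophils summed to 70.21 and 74.08 TPM in replicates 1 and 2, T and NK cell markers to 35.43 and 18.64 TPM, mostly Nkg7 (34.29 and 17.3 TPM), and erythroid markers to 936.1 and 1405.87 TPM. Alternatives changed the unit, pseudocount, detection threshold, scaling, filter and transcript types, or left out 1 library.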

Additional observations from a re-analysis of the deposited data

How the results depend on the processing

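No paired analysis was possible because there was 1 group. With log2(TPM + 1), 201 genes were more than 2-fold apart between replicates and 0 members were; without a filter on low counts, 4233 genes were, against 867. Of the 8 members at 1 TPM or more in both libraries, those whose most abundant transcript was not protein-coding numbered 1 to 2 when either library was left out, the second being Uhrf1 in replicate 2; restricting this count to protein-coding transcripts gives no value. Those counted as detected numbered 6 at 5 TPM and at 10 TPM. The coefficient of variation was 28.7% without the filter and 19.0% with DESeq2. The mean log2 ratio of no pair changed sign under any of 8 alternatives. Within single libraries, Dnmt3b over Dnmt3a on protein-coding transcripts was 0.0014 in replicate 1 and -0.107 in replicate 2. The mean log2 ratio of Idh2 over Idh1 ran from 2.95 to 6.67. That of Uhrf1 over Dnmt1 ran from -1.32 to -0.08 and that of Tet1 over Tet2 from -3.46 to -1.31. Of 127 other levels, medians, pair ratios and transcript shares under alternatives that kept both libraries, 81 moved by less than 1 SD between replicates, or not at all, and 46 by more. Some of these outcomes were fixed by the unit. FPKM equals TPM times a constant factor per library, so it shifted every level and left pair ratios nearly unchanged. Genes with protein-coding transcripts alone could not move when other transcripts were left out. The tally therefore does not measure how stable the values are. With 2 libraries, leaving out 1 always moves a mean by less than 1 SD, so those values say nothing here; the cause was not tested except where the unit itself leaves out transcripts or length.

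With 2 libraries an SD rests on 1 degree of freedom. Depth limits Tet1 and Idh1 most, with 110 to 471 counts. Transcript shares rest on the deposited transcripts alone, and further member transcripts of GENCODE M21 were not quantified. The antisense gene Dnmt3aos shares 133 exon bases with Dnmt3a and had 0 TPM in both libraries. Without strand information, reads of Dnmt3aos and Dnmt3a within those 133 bases cannot be told apart. The pseudogene Dnmt3a-ps1 is in the tables, and reads it shares with Dnmt3a were not tested.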

Other observations

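Among the 56 genes of the 6 pathway lists at 1 TPM or more in both libraries, 11 had under 50% of their TPM in protein-coding transcripts (19.6%), against 1977 of 10061 protein-coding genes (19.7%). They included Usp7 (3.93% and 2.37% of TPM in protein-coding transcripts in replicates 1 and 2), Mat2b (5.97% and 7.85%), Trim28 (19.5% and 20.5%) and Sdha, a succinate dehydrogenase subunit (28.6% and 30.6%). Of the alpha globin gene Hba-a1, 1.26% and 0.849% of TPM lay in protein-coding transcripts. These genes were chosen after their values were seen.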
